A study of Mus musculus with 70 samples.

Results

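Gene expression in the uvula (UVU, lobule IX at the posterior end of the cerebellar vermis) was compared with that in the central lobule II (CENT2) and the culmen lobules IV-V (CUL4,5), which lie in the anterior vermis. The comparison used 11 of the 70 libraries of the series, 3 from UVU, 4 from CENT2 and 4 from CUL4,5, chosen by the region named in their labels, with both anterior lobules given equal weight. All came from untreated male C57BL/6NTac mice at postnatal day 56, with no transgene in any group. Each library held RNA from punches of frozen coronal sections pooled from 3 or 4 mice, so the spread between replicates is a spread between pools. The study used fewer adult mice than these pools would need without sharing, so some libraries hold tissue of the same animals, and the fits took the libraries as independent. A punch takes in the whole thickness of the tissue at its site, and therefore more than the cerebellar cortex. The flocculus (FL), a lateral lobule of the vestibular cerebellum with 4 libraries, served as a further cerebellar cortex of the same age and strain. Levels are given in TPM (transcript abundance scaled to a fixed total in each library), summed by the authors over the transcripts of each gene, and the total estimated count per library ranged from 13409041 to 19058602.

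The cerebellar cortex has the same layered circuit in every lobule. Purkinje cells, its only output neurons, receive climbing fibers and the parallel fibers of granule cells, and they fall into parasagittal stripes that either express or lack aldolase C, the antigen known as zebrin II. Zebrin-negative stripes are wide in the anterior vermis, and most Purkinje cells of the posterior lobules are zebrin-positive. Metabotropic glutamate signaling runs mainly through phospholipase C beta 3 (Plcb3) in zebrin-positive cells and through phospholipase C beta 4 (Plcb4) in zebrin-negative cells. The posterior vestibular lobules are also known for their many unipolar brush cells, which are excitatory interneurons of the granular layer.

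The libraries differed in transcripts known from neighboring tissue, blood and myelin. The 8 choroid plexus genes summed to 2178 TPM in UVU 1, against 67 and 59 TPM in UVU 2 and UVU 3 and 12.1 to 41.2 TPM in the anterior lobules. Ttr (transthyretin, the main secreted product of the choroid plexus) accounted for most of the sum in UVU 1, with 2029, 6.65 and 0.595 TPM in UVU 1, 2 and 3. Otx2, a gene on this list that is described below, accounted for most of the sums in UVU 2 and UVU 3. Its levels were 51.9, 44.4 and 47.1 TPM in UVU 1, 2 and 3. The 8 ependymal and motile cilia genes summed to 666, 740, 186 and 299 TPM in the CENT2 libraries and to at most 15.9 TPM in those of CUL4,5, with 75.7, 11.2 and 12.1 TPM in UVU 1, 2 and 3. Red cell transcripts were also highest in UVU 1, with a sum of 4181 TPM over 5 genes against 845 to 2880 TPM in the other 10 libraries. Myelin genes summed to 3979 TPM in UVU 3 and to 1441 to 2660 TPM elsewhere. The part of these transcripts in the results below was not tested beyond the values without single libraries that stand beside the genes concerned.

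**Figure D1:**
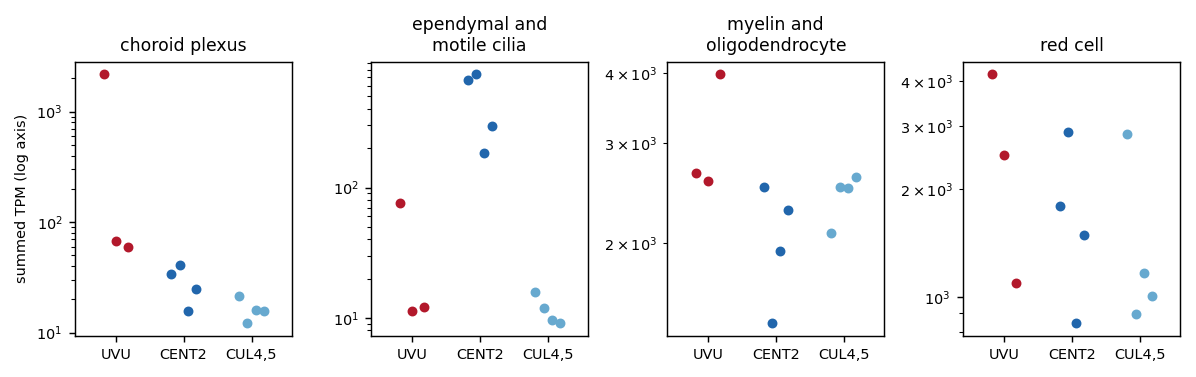
Summed TPM of the choroid plexus, ependymal, myelin and red cell gene lists (vertical log axes) in each UVU, CENT2 and CUL4,5 library (points). UVU 1 stands apart for choroid plexus at 2178 TPM, and the 4 CENT2 libraries lie between 186 and 740 TPM for ependymal genes, above all others.

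Of 15999 genes tested with limma, 261 (1.63%) were higher and 369 (2.31%) lower in UVU at an adjusted p under 0.05, which together is 3.94% of the genes. The median log2 fold change was 0.67 among the genes that rose and -0.59 among those that fell. Only 72 of the higher genes (0.45% of those tested) and 79 of the lower ones (0.494%) changed by more than 1 on the log2 scale. In 225 of the higher genes all 3 UVU libraries lay above all 8 anterior libraries, a separation that 2.51% of all genes tested showed. In 311 of the lower genes all 3 lay below, as in 3.09% of all genes tested. Taken against each anterior lobule in turn, 855 genes (5.34%) differed from CENT2, 566 of them (3.54%) lower in UVU, and 630 (3.94%) from CUL4,5, with the same UVU libraries in both comparisons. Against both lobules separately, 137 genes (0.856%) were called higher and 196 (1.23%) lower. Of the 346 genes (2.16%) that were lower than in CENT2 by more than 1 on the log2 scale, only 44 were also called lower than in CUL4,5, and all 8 ependymal and motile cilia genes were called lower than in CENT2. The counts depended on single UVU libraries, with 123 higher and 196 lower without UVU 2 and 126 higher and 216 lower without UVU 3. Without UVU 1 there were 208 higher and 349 lower genes, of which 165 and 255 were among those called with it. With a block for runs of consecutive library numbers among the 11 libraries, 335 genes were higher and 630 lower.

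Aldoc (GRCm38 chr11:78322968-78327781, plus strand), which encodes the zebrin II antigen, stood at 4795, 4042 and 4204 TPM in UVU. Its levels were 1671, 1754, 2081 and 1500 TPM in CENT2 and 1986, 2853, 2310 and 2154 TPM in CUL4,5. Every UVU library was thus above every anterior library, and the mean of CUL4,5 (2326 ± 376 TPM, SD, n = 4) lay between that of CENT2 (1751 ± 244 TPM, SD, n = 4) and that of UVU (4347 ± 397 TPM, SD, n = 3). Aldoc was 2.17-fold higher in UVU, a log2 fold change of 1.11 with a standard error of 0.12 and an adjusted p of 0.000353 by limma. It rose against CENT2 (log2 fold change 1.32) and against CUL4,5 (0.91) taken alone. Among the 18 adult regions of the series UVU had the highest mean Aldoc level, ahead of FL at 2704 TPM. Aldoc is also made by astrocytes. The 12 Bergmann glia and astrocyte genes summed to 3021 to 3520 TPM in UVU and to 2890 to 3501 TPM in the anterior lobules, and limma called 0 of them (1 at an unadjusted p under 0.05, 0 by edgeR and 0 by DESeq2). The part of astrocytes in the Aldoc difference was not tested.

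Plcb4 (chr2:135659011-136014593, plus strand) moved the opposite way by a smaller amount. Its levels were 209, 229 and 223 TPM in UVU, 255, 302, 311 and 362 TPM in CENT2, and 306, 298, 320 and 291 TPM in CUL4,5. The UVU libraries were all below the anterior ones, with a log2 fold change of -0.47 (standard error 0.09) and an adjusted p of 0.0103 by limma. The highest adjusted p with a library left out was 0.0502, without UVU 1, and the call was also lost without UVU 3. Within FL, Plcb4 was lower still, at 183, 163, 152 and 144 TPM.

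Of 6 further genes known from zebrin-positive Purkinje cells, limma called 3, all higher in UVU (1.63% of all genes tested were). The median log2 fold change of the 6 was 0.39, against -0.0005 over all genes tested. The gene lists used here and below, apart from the study's obesity list, were chosen with earlier results of these data known. The share called in such a list is therefore no test of the list. Kctd12, an auxiliary subunit of GABA-B receptors, was at 69.4, 76.7 and 76.3 TPM in UVU against 26.4 to 34.1 TPM in CENT2 and 37.0 to 54.7 TPM in CUL4,5. Its log2 fold change was 1.03 with an adjusted p of 0.000345 by limma. Plcb3, the phospholipase C of the zebrin-positive class, was at 44.9, 46.1 and 41.6 TPM in UVU and between 23.0 and 32.6 TPM in the anterior lobules, without overlap (log2 fold change 0.69, adjusted p 0.000568). Slc1a6, the Purkinje cell glutamate transporter EAAT4, rose by 0.71 on the log2 scale (adjusted p 0.0122). That rise was 1.01 against CENT2 and 0.40 against CUL4,5, where it did not pass the test (adjusted p 0.232), and UVU 2 at 174 TPM lay below the highest CUL4,5 library at 176 TPM. Without UVU 1, at 238 TPM the highest, the adjusted p for Slc1a6 was 0.0598, and the call was also lost without UVU 3. The remaining 3 of this list, Gabbr2, Sphk1 and Ncs1, did not pass limma, with log2 fold changes of 0.09, -0.48 and -0.33. Sphk1, a sphingosine kinase, and Ncs1, a neuronal calcium sensor, were called lower in UVU by edgeR (adjusted p 0.0456 and 0.0405) and by DESeq2 (0.0147 and 0.00434), against the direction of the other called members.

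Of 5 genes known from zebrin-negative Purkinje cells, 3 were lower in UVU, where 2.31% of all genes tested were, and 2 did not pass the test. The median log2 fold change of the 5 was -0.40, and that of the genes common to all Purkinje cells, described next, was -0.39. Ebf2, a transcription factor of late-born zebrin-negative Purkinje cells, had 3.11, 2.68 and 2.71 TPM in UVU. It had 8.87, 9.98, 8.93 and 9.47 TPM in CENT2 and 8.47, 8.01, 9.85 and 10.1 TPM in CUL4,5. This was the widest separation of the list, with a log2 fold change of -1.54 (standard error 0.11) and an adjusted p of 2.1e-05 by limma. Nptn (neuroplastin, a cell adhesion molecule) fell by 0.40 on the log2 scale, from 717 to 950 TPM in the anterior libraries to 588 to 651 TPM in UVU (adjusted p 0.00272). With edgeR the call for Nptn was lost (adjusted p 0.0513). Hspb1, a small heat shock protein found in Purkinje cells of the posterior vestibular lobules, was at 39.9, 23.9 and 24.8 TPM in UVU against 13.4 to 21.1 TPM in the anterior lobules (log2 fold change 0.77, adjusted p 0.021). The highest value was that of UVU 1, and without this library the log2 fold change was 0.54 and the adjusted p 0.0659. Taken alone, CUL4,5 differed from UVU in Hspb1 (adjusted p 0.0126 by limma) and CENT2 did not (0.106).

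**Figure D2:**
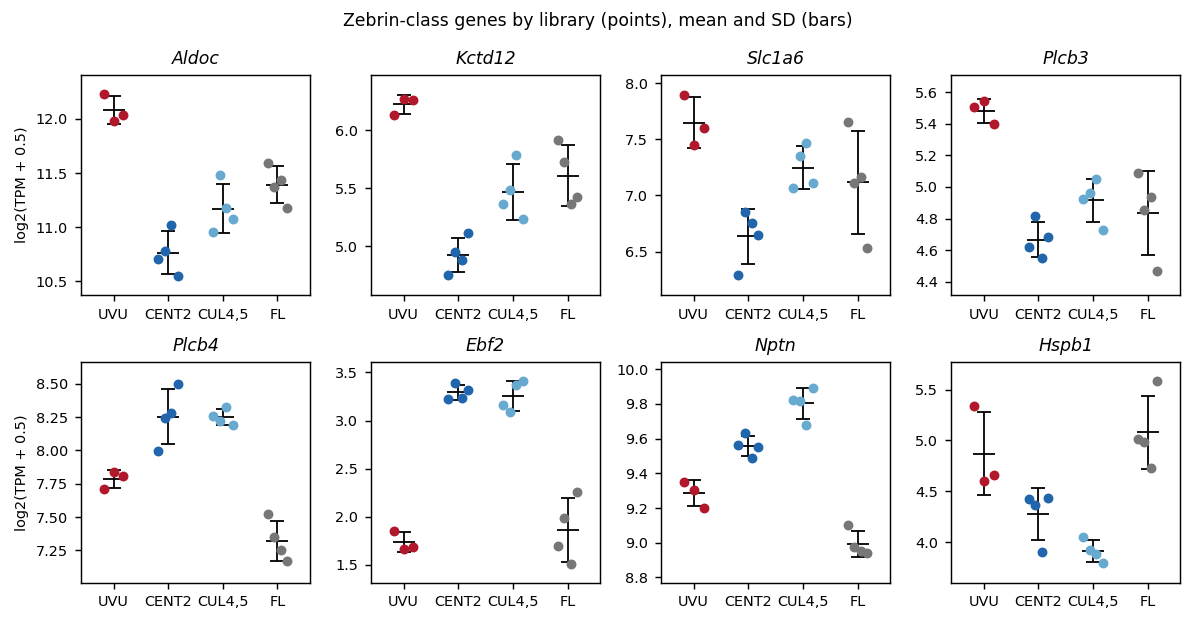
Levels of 8 zebrin-class genes as log2(TPM + 0.5) (vertical axes, not starting at 0) in each UVU, CENT2, CUL4,5 and FL library (points), with the mean and SD of each group (bars). Aldoc, Kctd12 and Plcb3 lie higher in all 3 UVU libraries than in the 8 anterior ones, and Plcb4, Ebf2 and Nptn lie lower.

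Genes common to all Purkinje cells tended to lower levels in UVU. Of 13 tested, 5 fell and 0 rose (38.5% against 3.94% of all genes), with a median log2 fold change of -0.39. Rgs8, a regulator of G protein signaling, was at 329, 375 and 343 TPM in UVU, against 528 to 731 TPM in CENT2 and 677 to 777 TPM in CUL4,5 (log2 fold change -0.95, adjusted p 0.00015). Car8, a protein that binds the IP3 receptor, was at 416, 445 and 447 TPM in UVU, below all 8 anterior libraries, of which CENT2 1 was the lowest at 532 TPM (log2 fold change -0.89, adjusted p 0.00241). Itpka, a kinase of IP3, fell by 0.71 on the log2 scale (adjusted p 0.00454), from 48.4 to 74.8 TPM in the anterior lobules to 38.6 to 42.5 TPM in UVU. Homer3, a postsynaptic scaffold that binds the IP3 receptor, had a log2 fold change of -0.56 (adjusted p 0.0167). UVU 1 and CENT2 1 overlapped for Homer3 at 251 and 238 TPM, and the call was lost without UVU 2 or UVU 3 (adjusted p of at most 0.109). Homer3 did not pass against CENT2 alone (adjusted p 0.0836 by limma). Skor2, a corepressor of Purkinje cells, fell by 0.69 (adjusted p 0.0329), a call that was lost without any one of 7 of the 11 libraries, UVU 1, 2 and 3, CENT2 3 and 4 and CUL4,5 2 and 3 (adjusted p of at most 0.194). Skor2 did not pass against CUL4,5 alone (adjusted p 0.0568 by limma).

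The other 8 common Purkinje genes did not pass limma. DESeq2 called 2 of these 8 lower, Ppp1r17, a phosphatase inhibitor (limma log2 fold change -0.39, adjusted p 0.0213 by DESeq2), and Dner, a Notch ligand (-0.29, 0.0345), and edgeR called 0. Gng13, a G protein subunit, had a log2 fold change of 0.07 (95% interval -0.17 to 0.31), Pcp2 of -0.32 (-0.61 to -0.04), and Calb1 of -0.45 (-0.97 to 0.08). In bulk tissue, fewer Purkinje cells and less of these RNAs per cell cannot be told apart. The summed level of the list was 7159, 6181 and 6012 TPM in UVU 1, 2 and 3, below the 8095 to 9555 TPM of CUL4,5. In CENT2 it was 5968 TPM in CENT2 1, under all UVU libraries. In CENT2 2, 3 and 4 it was 8854, 8260 and 7827 TPM, above them.

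The metabotropic glutamate to phospholipase C pathway, which couples parallel fiber input to calcium release in Purkinje cells, held both directions. Of 25 members tested, 3 rose and 7 fell (40.0% against 3.94% of all genes), with a median log2 fold change of -0.11. Plcb3, Plcb4, Rgs8, Car8 and Homer3, described above, are among these calls. Beside Plcb3, the genes that rose were Prkcd, a protein kinase C, with a log2 fold change of 0.67 (adjusted p 0.0111), and Mgll, the lipase that degrades the endocannabinoid 2-AG, with 0.40 (adjusted p 0.00993). Prkcd was at 106, 95.8 and 99.6 TPM in UVU and at 42.1 to 76.5 TPM in the anterior lobules, but its call was lost without UVU 1 or UVU 3 (adjusted p of at most 0.0574). Prkcd did not pass against CUL4,5 alone (adjusted p 0.121 by limma). Prkca, another protein kinase C, fell by 0.59, from 23.7 to 34.3 TPM in the anterior libraries to 19.7, 19.6 and 17.5 TPM in UVU (adjusted p 0.00399). Dagla, the enzyme that makes 2-AG, fell by 0.33 (adjusted p 0.0237), so the enzymes of its synthesis and degradation changed in opposite directions.

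**Figure D3:**
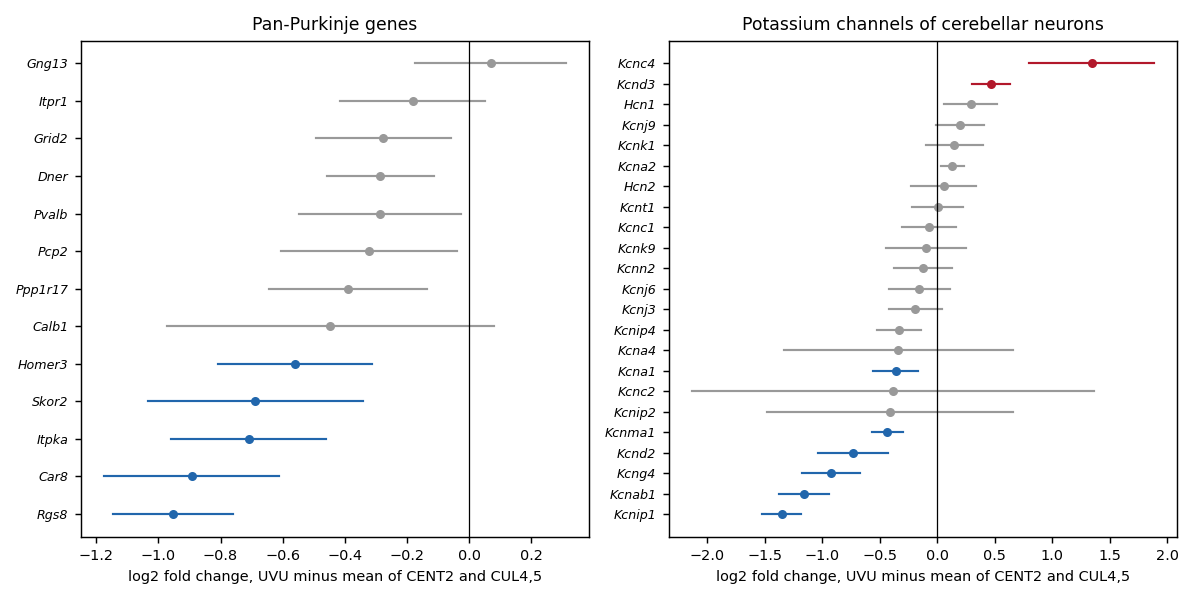
Log2 fold change of UVU against the mean of CENT2 and CUL4,5 (horizontal axes) with its 95% interval for each tested pan-Purkinje gene and for the tested potassium channel genes, 1 of which is not shown. Red marks genes that rose, blue genes that fell and grey genes that did not pass the test, with 5 of 13 Purkinje genes in blue and Kcnip1 the lowest channel gene at -1.35.

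Potassium channel genes of cerebellar neurons were called in 9 of 24 tested (37.5%) against 3.94% of all genes tested, with 2 higher and 7 lower. As for the other lists, the members were chosen with earlier results known, so this share is no test. Kcnip1, a calcium-binding subunit of A-type channels, was at 33.1, 39.9 and 31.2 TPM in UVU. In the anterior lobules it was at 73.6, 85.8, 88.0 and 84.2 TPM (CENT2) and 95.6, 98.2, 91.8 and 96.8 TPM (CUL4,5), a log2 fold change of -1.35 with a standard error of 0.08 and an adjusted p of 7.66e-06. Kcnd2, the pore subunit Kv4.2 to which Kcnip1 binds, fell by 0.73 (adjusted p 0.0114), and Kcnd3, the related pore subunit Kv4.3, rose by 0.47 (adjusted p 0.00462). Kcnab1, a beta subunit of Kv1 channels, fell by 1.16 (adjusted p 9.9e-05), from 112 to 184 TPM to 69.6, 68.1 and 66.8 TPM. Among the other lower genes were Kcng4, a modifier of Kv2 channels (-0.92, adjusted p 0.000823), Kcnma1, the BK channel (-0.43, adjusted p 0.00229), and Kcna1 (-0.36, adjusted p 0.0473). Kcnc4, the Kv3.4 channel, rose by 1.34 (adjusted p 0.0103). It was at 58.6, 56.7 and 51.8 TPM in UVU and at 16.7 to 21.6 TPM in 7 anterior libraries, with CENT2 1 apart at 45.7 TPM, and its call was lost without UVU 2 (adjusted p 0.0594).

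The largest differences between UVU and the anterior lobules were in genes of low to moderate level. The 12 genes with the largest rise among those whose libraries did not overlap were Tlx3, Th, Syndig1l, Otx2, Colq, Mab21l2, Samd3, Inhbb, Sln, Spink8, Moxd1 and F2r. Their log2 fold changes ran from 4.78 down to 2.15. Tlx3, Colq, Samd3, Spink8 and Moxd1 reached 1 TPM in fewer than 3 anterior libraries and so entered the test only with the UVU libraries counted.

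Tlx3 (chr11:33200752-33203589, minus strand), a homeobox transcription factor of excitatory neurons, was at 14.3, 22.1 and 16.1 TPM in UVU. It was listed at 0 TPM in 3 CENT2 libraries and at 0.082 TPM in CENT2 4, and it was at 0, 0.321, 1.06 and 0.149 TPM in CUL4,5. The fitted log2 fold change of 4.78 (standard error 0.32, adjusted p 1.9e-05) depends on the pseudocount at such low reference levels. UVU had the highest mean of the 18 adult regions at 17.5 TPM, followed by the parabrachial nucleus (PB) at 4.67 TPM.

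Otx2 (chr14:48657677-48673819, minus strand), a homeobox factor of the posterior cerebellum that is also strongly expressed in choroid plexus, was at 51.9, 44.4 and 47.1 TPM in UVU. Its levels were 3.52, 7.12, 2.79 and 4.45 TPM in CENT2 and 3.98, 3.10, 5.37 and 3.76 TPM in CUL4,5, a log2 fold change of 3.39 (standard error 0.23, adjusted p 1.9e-05). The level was about as high in UVU 2 and UVU 3, where Ttr stood at 6.65 and 0.595 TPM, as in UVU 1, and without UVU 1 the log2 fold change was 3.33. FL had 29.5, 24.9, 15.4 and 15.2 TPM, between UVU and the anterior lobules.

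Th, tyrosine hydroxylase and the rate-limiting enzyme of catecholamine synthesis, was at 44.0, 39.0 and 27.9 TPM in UVU and at 0.822 to 5.27 TPM in the anterior lobules (log2 fold change 3.79, adjusted p 0.000157). The ventral tegmental area (VTA), a nucleus of dopamine neurons, had the highest mean of the adult regions at 639 TPM, and UVU ranked 6th of 18. Syndig1l, a transmembrane protein related to a synapse differentiation factor, was at 69.8, 87.6 and 79.2 TPM in UVU against 2.66 to 10.5 TPM in the anterior lobules (log2 fold change 3.603, adjusted p 1.9e-05). Colq, the collagen tail that anchors acetylcholinesterase, was at 11.2, 9.46 and 11.2 TPM against 0.375 to 1.30 TPM (log2 fold change 3.31, adjusted p 2.1e-05). None of the UVU values for these genes overlapped the anterior ones.

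Inhbb, the beta B subunit of inhibin and activin, was at 20.5, 9.91 and 16.0 TPM in UVU against 1.00 to 3.02 TPM (log2 fold change 2.73). Sln (sarcolipin, a regulator of the SERCA calcium pump) was at 7.12, 5.19 and 9.23 TPM against 0.108 to 1.27 TPM (log2 fold change 2.73). F2r, the thrombin receptor PAR1, was at 16.9, 10.1 and 12.1 TPM against 1.71 to 5.66 TPM (log2 fold change 2.15). For these 3 genes UVU was thus apart from both anterior lobules, with adjusted p of 0.000291, 0.000298 and 0.000353. Mab21l2, a gene of the Mab-21 family of developmental regulators, rose by 2.86 (adjusted p 0.00016). Samd3 and Moxd1 rose by 2.83 and 2.35 (adjusted p 0.000258 and 0.00141). Both reached 1 TPM in the UVU libraries alone and could not be tested without any one of them. Of 10 genes tested in this position, 8 were called higher in UVU. The filter had set the direction of all such genes in advance, so this share is no result about them. Spink8, a putative serine protease inhibitor, rose by 2.44 (adjusted p 0.0128), with CUL4,5 3 at 3.14 TPM close to the 3.51 TPM of UVU 3, and lost its call without UVU 2 (adjusted p 0.0953). Spink8 did not pass against CUL4,5 alone (adjusted p 0.0711 by limma).

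The 12 genes with the largest fall under the same rule were Prl2c2, Impg1, Prl2c3, Rprml, Col27a1, Opn3, Ptprt, Myo15, Nr0b2, Sv2c, Tgm5 and Cck. Impg1, Myo15, Nr0b2 and Tgm5 reached 1 TPM in no UVU library and so entered the test only through the anterior libraries, where they were high. Prl2c2 and Prl2c3, which belong to the prolactin family and are near-identical copies, had log2 fold changes of -3.28 and -2.75. How reads were divided between these copies is uncertain, and the call for Prl2c2 was lost without UVU 2 (adjusted p 0.0503). Impg1, a proteoglycan known from the retina, was at 0, 0.0452 and 0.234 TPM in UVU and at 2.78 to 5.40 TPM in the anterior lobules (log2 fold change -2.89, adjusted p 3.47e-05).

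Col27a1, a fibrillar collagen, was at 5.00, 4.18 and 6.91 TPM in UVU and at 21 to 29.9 TPM in the anterior lobules (log2 fold change -2.23, adjusted p 8.94e-06). Opn3 (encephalopsin, a nonvisual opsin) was at 2.92, 2.86 and 3.14 TPM against 11.1 to 17.2 TPM (log2 fold change -2.07, adjusted p 7.66e-06). Ptprt, a receptor tyrosine phosphatase, was at 10.7, 5.24 and 6.06 TPM against 23.5 to 35.0 TPM (log2 fold change -2.04), and UVU had the lowest mean of the 18 adult regions. Sv2c, a synaptic vesicle glycoprotein, was at 8.78, 9.51 and 9.06 TPM against 28.4 to 42.1 TPM (log2 fold change -1.80, adjusted p 7.66e-06). For all 4 genes the gap between the groups was wider than the range within UVU.

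Cck, the neuropeptide cholecystokinin, was at 48.7, 51.8 and 42.2 TPM in UVU. It was at 134, 172, 172 and 178 TPM in CENT2 and at 144, 164, 153 and 153 TPM in CUL4,5, a log2 fold change of -1.73 (standard error 0.09, adjusted p 7.66e-06). Of 19 neuropeptide genes tested, Cck and Npy were called lower and 0 higher (10.5% against 3.94% of all genes). Npy (neuropeptide Y) was at 31.9, 23.7 and 25.2 TPM in UVU, within the 24.1 to 33.0 TPM of CENT2 or just below it and under the 48.7 to 73.8 TPM of CUL4,5. Its log2 fold change was -0.13 against CENT2 (adjusted p 0.766) and -1.13 against CUL4,5 (adjusted p 0.00268), and the call against both lobules was lost without any one of 6 libraries (UVU 2 and 3, CENT2 2 and 4, CUL4,5 1 and 4, adjusted p of at most 0.195). The remaining 4 genes, Rprml, Myo15, Nr0b2 and Tgm5, fell by 2.27, 2.01, 1.99 and 1.75 on the log2 scale, with adjusted p between 0.000102 and 0.00637 by limma. Rprml was at 1.92, 0 and 0.149 TPM in UVU 1, 2 and 3. Myo15, Nr0b2 and Tgm5 were at 0.724 TPM or less in each UVU library.

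**Figure D4:**
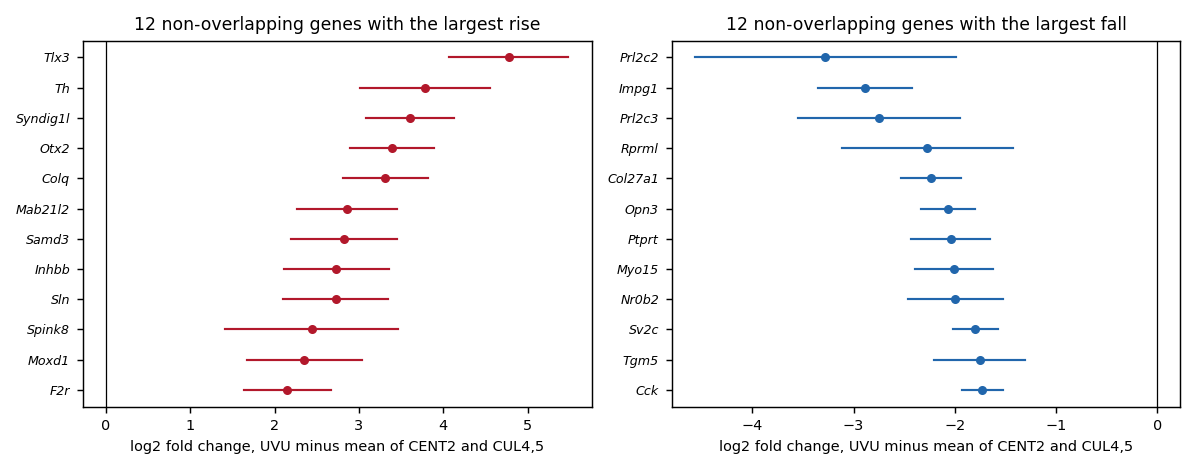
Log2 fold change of UVU against the mean of CENT2 and CUL4,5 (horizontal axes) with its 95% interval for the 12 genes with the largest rise (left) and the 12 with the largest fall (right), among called genes whose UVU libraries do not overlap the anterior ones. The values run from 4.78 for Tlx3 to 2.15 for F2r and from -3.28 for Prl2c2 to -1.73 for Cck.

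Unipolar brush cell genes were split. Of 9 tested, 3 rose and 2 fell (55.6% against 3.94% of all genes), and the median log2 fold change was -0.03. Eomes (Tbr2, a T-box factor that marks unipolar brush cells in the adult cerebellum) was at 29.8, 40.6 and 48.1 TPM in UVU. It was at 8.14, 14.7, 22.6 and 12.3 TPM in CENT2 and at 13.2, 15.2, 10.9 and 14.9 TPM in CUL4,5, so that no anterior library reached the lowest UVU one (log2 fold change 1.49, standard error 0.25, adjusted p 0.00604). Lmx1a, a LIM homeobox factor of the same cells, was at 2.95, 2.24 and 3.21 TPM against 0.0825 to 0.427 TPM (log2 fold change 2.14, adjusted p 0.000628). It reached 1 TPM in the UVU libraries alone, so it entered the test only through the group in which it was high and could not be tested without any one of them. The third was Otx2, which is also on the choroid plexus list. The fallers were Plcb4, also on the zebrin-negative list, and Calb2 (calretinin). The whole list summed to 782 to 921 TPM in UVU, 798 to 1032 TPM in CENT2 and 1088 to 1149 TPM in CUL4,5. Which cells account for these differences was not tested. Calb2 was at 269, 329 and 303 TPM in UVU, at 317 to 378 TPM in CENT2 and at 496 to 545 TPM in CUL4,5. It fell by 0.79 against CUL4,5 (adjusted p 0.00034), and against CENT2 its log2 fold change was -0.22 (adjusted p 0.203).

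Of 32 patterning transcription factors tested, 3 rose and 2 fell (15.6% against 3.94% of all genes). Irx3, an Iroquois homeobox factor, was at 23.2, 22.1 and 19.3 TPM in UVU, at 13.7, 6.95, 9.60 and 10.2 TPM in CENT2 and at 3.11, 3.51, 4.55 and 3.02 TPM in CUL4,5. Both anterior lobules were below UVU, by 1.09 (CENT2) and 2.46 (CUL4,5) on the log2 scale, with adjusted p of 0.0106 and 8.68e-05. Nr2f2 (COUP-TFII, an orphan nuclear receptor) was at 9.94, 9.17 and 7.00 TPM in UVU against 22.0 to 31.3 TPM in the anterior lobules and 39.9 to 52 TPM in FL (log2 fold change -1.52, adjusted p 7.37e-05). Ebf1 rose by 0.75 (adjusted p 0.0435) while its relative Ebf2 fell. The rise of Ebf1 was weakly supported, since UVU 1 was at 112 TPM and UVU 3 at 63.9 TPM against up to 63.6 TPM in CUL4,5. Its call was lost without any one of 9 libraries, each apart from UVU 3 and CENT2 2 (adjusted p of at most 0.17). Ebf1 did not pass against CUL4,5 alone (adjusted p 0.17 by limma).

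**Figure D5:**
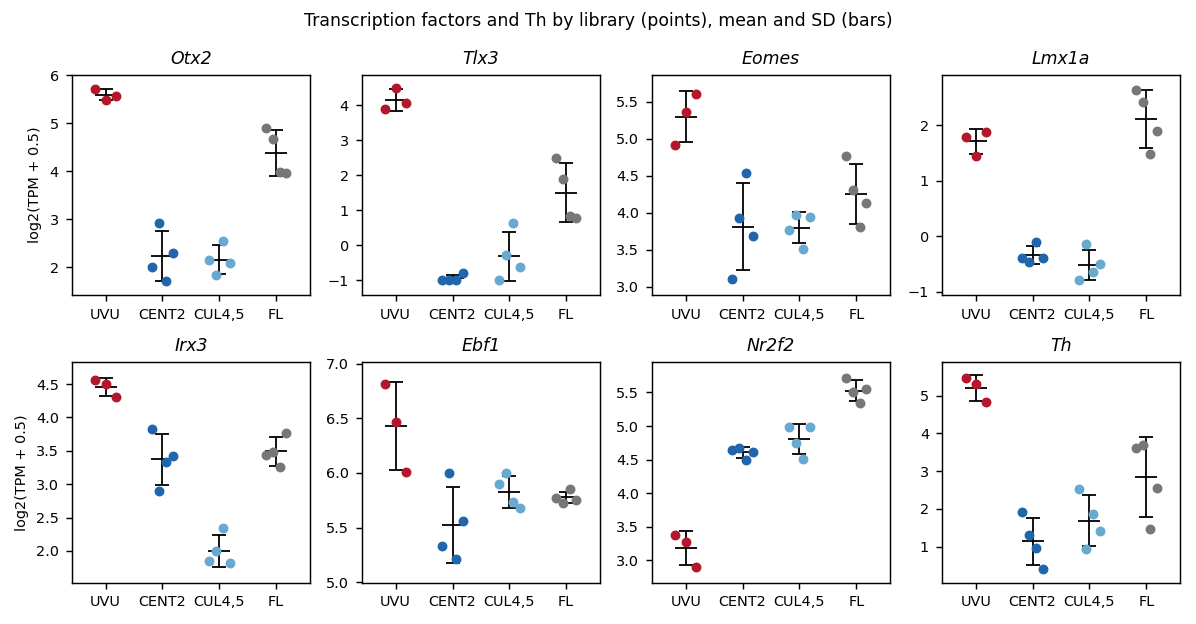
Levels of 7 transcription factors and Th as log2(TPM + 0.5) (vertical axes, not starting at 0) in each UVU, CENT2, CUL4,5 and FL library (points), with the mean and SD of each group (bars). Otx2, Tlx3, Eomes, Lmx1a, Irx3, Ebf1 and Th lie higher in all 3 UVU libraries than in the 8 anterior ones and Nr2f2 lower, and FL lies between them for Otx2 and Tlx3 and above both for Nr2f2.

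Because the homeodomain factor Otx2 and the EBF factors differed between the lobules, the bases before the start sites of named genes were searched for their known binding letters. These were TAATCC or GGATTA, the core bound by homeodomains of the Otx class on either strand, and TCCC and GGGA with any 2 bases between them, a palindrome bound by EBF factors. In the 250 bases before the start site, 6.25% of 32851 RefSeq mouse promoters (build GRCm38.p6) held the first and 0.779% the second. These are shares of single promoters, whereas a named gene was counted if any of its promoters held the letters, so the measures are unlike. Of the 12 genes with the largest rise, 8 had a promoter in the table and 1 of them held the Otx letters. Of the 12 with the largest fall, 11 had one and 1 held the EBF letters, that of Opn3. The stretches shown are those for Aldoc (chr11:78322823-78322967, plus strand), with 1 match, for Opn3 (chr1:175692777-175692831, minus strand), with 1 match, and for Tlx3 (chr11:33203590-33203838, minus strand), without a match to either. They are free of annotated exons, and capitals mark the matches, which are matches of letters and not measured binding.
Aldoc: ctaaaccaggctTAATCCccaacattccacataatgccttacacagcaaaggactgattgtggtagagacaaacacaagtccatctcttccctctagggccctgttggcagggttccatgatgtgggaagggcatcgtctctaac
Opn3: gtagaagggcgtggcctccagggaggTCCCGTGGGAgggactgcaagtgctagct
Tlx3: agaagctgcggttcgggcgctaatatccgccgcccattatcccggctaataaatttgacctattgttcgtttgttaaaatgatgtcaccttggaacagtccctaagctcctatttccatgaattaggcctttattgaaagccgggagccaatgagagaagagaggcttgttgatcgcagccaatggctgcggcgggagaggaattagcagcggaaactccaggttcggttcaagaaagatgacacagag

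The listed marker genes of granule cells, the most numerous cells of the cerebellar cortex, showed no difference that passed limma. None of 13 granule cell genes was called by limma (1 at an unadjusted p under 0.05, 0 by edgeR and 1 by DESeq2), and the log2 fold changes lay between -0.28 and 0.17. Neurod1, for example, had a log2 fold change of 0.00 with a 95% interval from -0.39 to 0.39. Of 10 molecular layer interneuron genes, 1 was called (3.94% of all genes tested were). This was Lypd6, a modulator of nicotinic receptors, with a log2 fold change of -0.70 (adjusted p 0.0441), whose call was lost without any one of 7 libraries (the 3 of UVU, CENT2 1 and CUL4,5 2, 3 and 4, adjusted p of at most 0.204). Lypd6 did not pass against CENT2 alone (adjusted p 0.214 by limma). Of 6 Golgi cell genes limma called 0 (2 at an unadjusted p under 0.05, 1 by edgeR and 2 by DESeq2).

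Of 29 monoamine and acetylcholine receptor genes tested, 1 rose (3.45%, near the 3.94% of all genes). This was Adra2c, an alpha 2 adrenergic receptor, at 8.99, 8.86 and 8.22 TPM in UVU, with 1 CENT2 library at 8.30 TPM (log2 fold change 0.94, adjusted p 0.0299). Its call was lost without any one of 6 libraries (the 3 of UVU and CUL4,5 1, 2 and 4, adjusted p of at most 0.134). Adra2c did not pass against CENT2 alone (adjusted p 0.222 by limma). Among 13 metabotropic glutamate and GABA-B receptor genes, Kctd12 and Grm4 rose and Grm7 fell (23.1% against 3.94% of all genes). Grm4, the presynaptic receptor of parallel fibers, was at 324, 358 and 372 TPM against 193 to 309 TPM (log2 fold change 0.49, adjusted p 0.0332), and its call was lost without any one of 7 libraries (the 3 of UVU, CENT2 2 and CUL4,5 1, 2 and 4, adjusted p of at most 0.174). Grm4 did not pass against CUL4,5 alone (adjusted p 0.134 by limma). Grm7 was at 13.8, 9.68 and 10.4 TPM against 14.0 to 21.2 TPM (log2 fold change -0.64, adjusted p 0.0191), and its call was lost without UVU 2 or UVU 3 (adjusted p of at most 0.124). Grm7 did not pass against CENT2 alone (adjusted p 0.0713 by limma).

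Of 21 ephrin and Eph receptor genes, Ephb1 alone was called (4.76%, near the 3.94% of all genes). It was higher by 0.55 on the log2 scale (adjusted p 0.0155 by limma) and lost its call without UVU 2 or UVU 3 (adjusted p of at most 0.0986). Limma called 0 of 11 type II cadherins (4 at an unadjusted p under 0.05, 0 by edgeR and 2 by DESeq2) and 0 of 9 genes for cerebellins and their receptors (1, 0 and 0). Of 12 immediate early genes, Egr1 alone was called (8.33% against 3.94% of all genes). It was at 14.47, 28.8 and 17.2 TPM in UVU against 34.0 to 65.6 TPM, a log2 fold change of -1.24 (adjusted p 0.0102), and its call was lost without UVU 1 or UVU 3 (adjusted p of at most 0.0694).

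Markers of other cell types and neighboring tissue were mostly not called. In limma 0 genes passed among 5 oligodendrocyte precursor, 8 microglia, 8 endothelial, 8 meningeal and 5 red cell genes, and in each of these lists 0 had an unadjusted p under 0.05 and 0 were called by edgeR or DESeq2. Of 10 myelin genes limma called 0 (8 at an unadjusted p under 0.05, 0 by edgeR and 2 by DESeq2), with a median log2 fold change of 0.47. Of 8 ependymal and motile cilia genes limma called 0 against both lobules together (5 at an unadjusted p under 0.05, 0 by edgeR and 1 by DESeq2), with a median of -1.31. The choroid plexus list had 1 call in 7 tested, Otx2 (14.3% against 3.94% of all genes). Ttr had a log2 fold change of 4.10 with a 95% interval from 0.45 to 7.74, with UVU 1 far above the other libraries, and did not pass (adjusted p 0.263). Of 12 genes for cerebellar nuclei and brainstem 5 were high enough to be tested, and 1 fell (2.31% of all genes tested did). This was Nefh, a neurofilament subunit of large axons, at 65.1, 47.5 and 48.0 TPM in UVU against 79.4 to 129 TPM (log2 fold change -0.91, adjusted p 0.000421). With the FL libraries in the fit, the call for Nefh was lost (adjusted p 0.101).

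The study's 190 obesity-associated genes, for which the atlas was made, held 176 that were high enough to be tested. Of these 4 rose and 4 fell, which is 4.55% against 3.94% of all genes tested. Pgpep1, a peptidase, was at 44.3, 39.7 and 33.9 TPM in UVU against 19.4 to 26.7 TPM (log2 fold change 0.77, adjusted p 0.000922). Plxna2, a semaphorin receptor, was at 26.0, 29.8 and 29.5 TPM against 16.9 to 19.2 TPM (log2 fold change 0.65, adjusted p 0.000298). For both, UVU lay above every anterior library. Efr3b, which anchors a lipid kinase at the plasma membrane, rose by 0.36 (adjusted p 0.00165), and Irs1, the insulin receptor substrate, fell by 0.35 (adjusted p 0.0257). Plxna3 (log2 fold change 0.51), Sema3a, a ligand of plexin and neuropilin receptors (-0.69), and Erbb4, a neuregulin receptor (-0.60), were called as well. Their calls were lost without any one of 4 libraries for Plxna3 (the 3 of UVU and CUL4,5 2, adjusted p of at most 0.158), without UVU 2 for Sema3a (0.0755) and without any one of 9 for Erbb4 (all but CENT2 1 and 3, adjusted p of at most 0.205). Against CENT2 alone Plxna3, Sema3a and Erbb4 did not pass (adjusted p 0.0645, 0.0768 and 0.336 by limma).

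FL differed from UVU far more than the anterior vermis did. Of 16456 genes tested, 4866 (29.6%) were called, 3519 (21.4%) higher and 1347 (8.19%) lower in UVU. The median log2 fold change over all genes was 0.12, and with TMM-scaled TPM, which brought the median to -0.0002, the calls were split into 1831 higher and 2039 lower. Myelin genes summed to 9263 to 12396 TPM in FL against 2579 to 3979 TPM in UVU, and all 10 were called lower in UVU. Choroid plexus genes summed to between 56.5 and 3105 TPM in FL, and the part of either in the FL comparison was not tested.

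Set against that shift of 0.12, the zebrin and posterior genes separated UVU from FL unevenly. Aldoc was at 3081, 2646, 2769 and 2319 TPM in FL, between the anterior lobules and UVU, and higher in UVU by 0.69 on the log2 scale (adjusted p 0.00235). Plcb3 and Kctd12 were also higher in UVU than in FL, by 0.64 and 0.61 (adjusted p 0.00224 and 0.00666), and all 3 remained higher with TMM-scaled TPM, by 0.56 (Aldoc), 0.52 (Plcb3) and 0.49 (Kctd12). Of all 7 zebrin-positive genes, 4 were higher and 2, Sphk1 and Ncs1, lower in UVU than in FL. Genes of the other classes were higher in UVU as well, 3 of 5 zebrin-negative genes, among them Plcb4 (0.46, adjusted p 0.00453) and Nptn (0.29, adjusted p 0.0047), and 8 of 13 common Purkinje genes, against 21.4% of all genes. With TMM-scaled TPM, Plcb4 remained called (0.34, adjusted p 0.0318) and Nptn did not (0.16, adjusted p 0.0555). The 8 of 13 and the 21.4% are without this scaling. Of the common Purkinje genes, Rgs8 remained called with it (0.74, adjusted p 0.00376 by limma). Car8 and Homer3 lost their calls (adjusted p 0.0622 and 0.137 by limma). Ebf2, Opn3 and Cck, which were lower in UVU than in the anterior lobules, had log2 fold changes of -0.13, -0.17 and -0.13 against FL and did not pass (adjusted p 0.572, 0.496 and 0.646). Impg1 was likewise at 0.0337 TPM or less in every FL library. Lmx1a and Mab21l2, which were high in UVU, had log2 fold changes of -0.40 and -0.31 against FL (adjusted p 0.3 and 0.452). Col27a1 and Nr2f2 were lower in UVU than in FL as well, by 2.35 and 2.34 on the log2 scale (adjusted p 8.82e-07 and 4.84e-07).

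Among the 11 libraries, the numbers in the labels form runs of consecutive values. Of these runs, 3 held a UVU library beside an anterior one. Libraries of other regions carry numbers between the runs, so the runs depend on which libraries were chosen. The study lists batches of sample collection by region and not by library. For these 3 regions, the batches are as many and are shared between regions in the same pattern as the runs. Which batch a library belongs to is not given. The 3 runs held UVU 1 with CENT2 1, UVU 2 with CENT2 2 and CUL4,5 1, and UVU 3 with CUL4,5 4. Both anterior lobules were thus present in the run of UVU 2 alone. Within all 3 runs, 64 of the 66 genes chosen for naming by rule kept the direction of their difference, as did 604 of the 630 called genes and 37.9% of all genes tested. The genes were chosen for their difference in these same libraries, which fixed much of this agreement. The exceptions among the named genes were Homer3 and Npy, which in the run of UVU 1 and CENT2 1 differed by 0.07 and 0.40 on the log2 scale.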

How the data were processed

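Single-read, strand-specific mRNA libraries from punched tissue were sequenced and base-called with CASAVA 1.8.2 according to the submitters' processing notes. The authors quantified transcripts with Kallisto on GRCm38 cDNA and deposited unnormalized estimated counts and TPM per transcript, with the gene TPM summed over transcripts. TPM is scaled within a library, so a few abundant transcripts lower all others. Whether quantification used strand is not given in the sources used here, so overlapping antisense genes may share reads.

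Gene TPM was taken as log2(TPM + 0.5) for genes with at least 1 TPM in at least 3 of the 11 libraries. The groups were compared with limma 3.58.1 in R 4.3.3 (eBayes with trend), with 1 mean per lobule, and adjusted by Benjamini-Hochberg over all genes. The FL comparison was fitted with FL added. Fold changes are on the log2(TPM + 0.5) scale and understate the change of low genes. For edgeR 4.0.16 and DESeq2 1.42.0, the deposited estimated counts were summed per gene through release 21 of GENCODE (107987 of 109282 transcripts matched) and rounded. For 336 gene names, the matched transcripts did not give the gene TPM. Alternatives changed the pseudocount, filter, scaling, tool, fitted libraries, blocks and left-out libraries. On simulated data with the 15999 genes of this comparison, 40 of 100 genes changed by 0.5 and 74 of 100 changed by 1 on the log2 scale were called, with 5 calls among 15799 unchanged genes.

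Genes named are Aldoc and Plcb4, the 12 with the largest log2 fold change in each direction among called genes without overlap of libraries (unnamed models left out), and up to 6 called genes per list with the largest change. Mgll, Dagla, Kcnd3, Kcnma1, Kcna1 and Irs1, and the genes given as not passing, fall outside this rule and were chosen after their values were seen. The members and lists were chosen with earlier results of these data known, so the shares called in the lists are descriptive. A few listed genes are counted but not reported by name here. The obesity list is the study's own. Replicates are pools of mice that share some animals, and p-values measure the spread between pools. Tables were made with Python 3.11.15 and pandas 2.3.3.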

Additional observations from a re-analysis of the deposited data

Results flagged for a closer look

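The 4 libraries of CENT2 and of CUL4,5 were examined for a single library apart from its group, by the gap to its nearest neighbor as a share of the range, for each of the 66 named genes. Of 132 such groups, 14 had a share above Dixon's critical value for 4 samples, where chance flags about 1 in 20. CENT2 1 was the library apart for Cck at 134 TPM, Car8 at 532 TPM, Kcnab1 at 112 TPM and Kcnc4 at 45.7 TPM, which in each case put it nearest to UVU. It was also apart for Sln at 0.482 TPM and Moxd1 at 0.226 TPM. CUL4,5 3 was apart for Colq at 1.30 TPM, Spink8 at 3.14 TPM, Adra2c at 4.65 TPM and Myo15 at 6.21 TPM, and CENT2 3 for Myo15 at 4.49 TPM and Hspb1 at 14.47 TPM. Single values stood apart for F2r in CUL4,5 1 at 2.16 TPM and for Tlx3 in CENT2 4 at 0.082 TPM.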

How the results depend on the processing

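With DESeq2 475 genes were higher and 719 lower in UVU, 1507 differed from CENT2 and 1187 from CUL4,5, and with a block for the runs of library numbers 630 were lower. With 1 library left out, the higher genes numbered 123 to 320, the lower 196 to 445, those that differed from CENT2 385 to 931, from CUL4,5 400 to 780, and from FL 2997 to 5858. The log2 fold change of Aldoc ran from 1.04 to 1.17 and that of Plcb4 from -0.51 to -0.43. Replicate numbers were not taken as pairs in the main fit. The deviations of same-numbered libraries correlated between -0.077 and 0.247. Those of the libraries numbered 1 correlated at 0.247 (UVU and CENT2), 0.134 (UVU and CUL4,5) and 0.196 (CENT2 and CUL4,5), and whether these share a deviation was not tested. With a replicate block 178 genes were higher and 283 lower, 701 differed from CENT2, 463 from CUL4,5 and 4227 from FL, and the log2 fold changes were 1.06 for Aldoc and -0.44 for Plcb4. Of the 66 named genes, 38 kept their call under each alternative in which they were tested, and 0 changed direction. The most were lost without UVU 2, 17 of 63, followed by 16 of 63 without UVU 3, 13 of 63 without UVU 1 and 13 of 66 with all adult libraries in the fit. Rprml lost its call with edgeR, Calb2 with FL in the fit, and Itpka and Efr3b with all adult libraries. With a block for the runs of library numbers, 8 of 66 lost their call, among them Skor2, Homer3, Lypd6, Ebf1, Npy, Sema3a and Plxna3. Leaving out CENT2 1 and CENT2 2 together, an alternative chosen after their ependymal transcripts were seen, gave 354 higher and 508 lower genes. The genes that differed from FL were split into 2741 higher and 2521 lower by edgeR and 2812 and 2737 by DESeq2. With 3 UVU pools, differences of 0.5 on the log2 scale were often missed on simulated data.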
